A study of Homo sapiens with 9 samples.

Results

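The NC condition of a pancreatic carcinoma line is described here: the 3 libraries titled nc and labelled NC, made from PANC-1 cells and chosen by their sample titles out of 9 libraries in the series. The other 6 libraries, 3 titled ACSS2-KO-2 and 3 titled ACSS2-KO-3, come from the same line with ACSS2 knocked out, and none of their values enters. ACSS2 is the enzyme that makes acetyl-CoA from acetate in the cytosol and nucleus. The labels give cell line PANC-1, cell type cancer and treatment NC for each library used, and they do not say what NC stands for, whether a guide or vector was used, or whether the libraries came from separate cultures. Unless they came from separate cultures, the p-values below reflect spread that can be technical. PANC-1 is an established human line from a ductal carcinoma of the pancreas, so the cells stand for 1 line in culture and not for a tissue.

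The pancreas holds ducts that carry juice, acini that make digestive enzymes and islets that make hormones. Ductal carcinoma cells share keratins and tight junction genes with ducts, and they can take on mesenchymal traits such as vimentin filaments and N-cadherin. PANC-1 is known as a poorly differentiated member of this tumour type, with loss of CDKN2A and a gain on the long arm of chromosome 19 that takes in AKT2 and PAF1.

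Polyadenylated RNA was counted per gene. Library totals were 15474995, 14906798 and 16326713 counts, and levels are given as counts scaled to a library total of 1000000 (CPM) or, to compare genes with each other, as CPM per kilobase of summed exons. A gene was called present when it had at least 1 CPM, which is 14.9 to 16.3 counts, in each of the 3 libraries. By that rule 13607 of 58735 genes were present, or 23.2%, while 15185 were detected at lower counts and 29943 had 0 counts throughout. Of 19951 protein-coding genes, 11912 were present, or 59.7%, and these 2 shares are the background for every list below. A count of 0 in 1 library allows a level of up to 0.184 to 0.201 CPM, from 3 counts, and covers counting error only. The median present protein-coding gene had 34.7 CPM, or 6.53 CPM per kilobase.

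The first library stood somewhat apart from the other two. Log2(CPM + 1) values over 14212 genes with a mean of at least 1 CPM correlated at 0.995 between libraries 1 and 2, 0.995 between 1 and 3, and 0.996 between 2 and 3 (Pearson, across genes, which are not independent replicates). For 10248 protein-coding genes with at least 300 counts in all, the squared deviation between libraries 2 and 3 averaged 1.9 times the counting variance, against 4.21 and 4.92 in the pairs with library 1. In edgeR's Poisson goodness-of-fit test, 2121 of 14468 genes varied among the 3 libraries beyond counting error at a Benjamini-Hochberg adjusted p under 0.05, which is 14.7%. Without library 1, 226 of 14766 genes did so, and libraries 2 and 3 therefore still differed by more than counting error and were kept as separate samples. The common dispersion was 0.00235, and 0.000809 without library 1. Library 1 also differed slightly with gene length. The median log2 ratio of library 1 to the mean of the other libraries was 0.03 for genes under 2000 exon bases and -0.08 for genes over 16000. These shifts are small beside the differences between genes described here, and the number of present genes was 13823 without library 1.

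**Figure D1:**
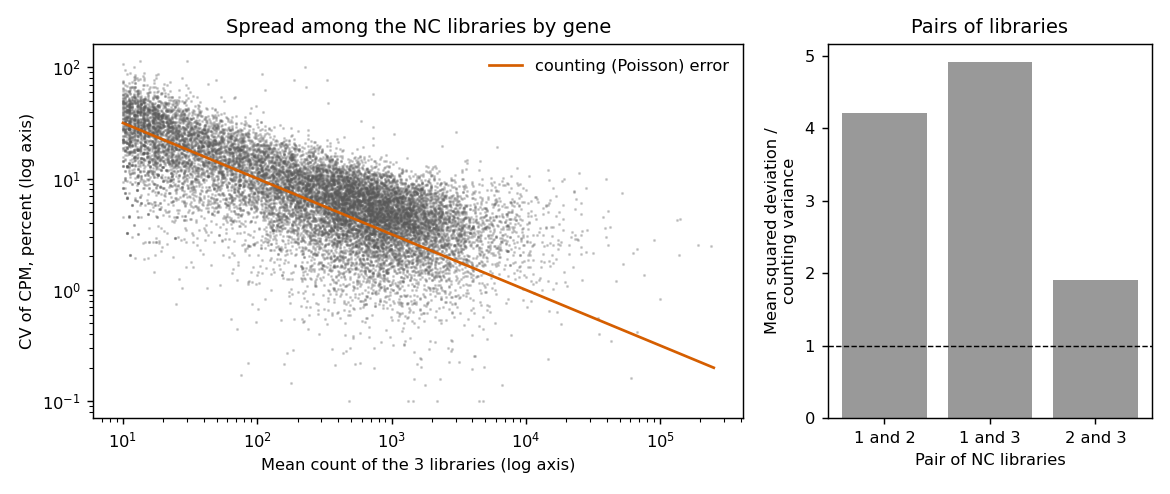
Left, the coefficient of variation of CPM among the 3 NC libraries (percent, log axis) for each gene against its mean count (log axis), with the line that counting error alone would give. Right, the mean squared deviation between each pair of libraries over the counting variance, where the dashed line marks 1. Genes of 10 to 100 counts lie around the counting line (median 19.4% against 19.2%), genes over 10000 counts lie above it (2.78% against 0.796%), and the pair without library 1 has the lowest bar at 1.9.

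Transcripts of the mitochondrial genome, translation factors, actins and glycolytic and lipid enzymes led the transcriptome. The 20 genes with the highest CPM took 11.1% of all counts (SD 0.0782, n = 3), and 931 to 945 genes were enough to make up 50% of a library. MT-CO1, the catalytic subunit of cytochrome c oxidase, stood at 15888, 15164 and 15302 CPM. EEF1A1, which brings aminoacyl-tRNA to the ribosome, stood at 12622, 11995 and 12309 CPM, and RPS16, a protein of the small ribosomal subunit, at 8121, 8592 and 8839 CPM. For each of these genes the 3 libraries gave close values. The cytoskeleton followed with ACTB at 6429 ± 52.7 CPM and ACTG1 at 4896 ± 67.1 CPM (SD, n = 3). Among enzymes ENO1, the enolase of glycolysis, measured 4322, 4317 and 4351 CPM, and SCD, the desaturase that makes oleate from stearate, measured 4184, 4367 and 4348 CPM. ACTN4, an actin crosslinker, the keratin KRT8, the kinase AKT2 and the translation factor EIF4G2 completed the nuclear genes of the list, and the other members were MT-RNR2, MT-ND4, MT-CO2, MT-CO3, MT-ND5, MT-CYB, MT-ND2, MT-ND1 and MT-ATP6. The mitochondrial genome gave 6.29% to 6.46% of counts and cytosolic ribosomal proteins gave 4.86% to 4.96%.

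**Figure D2:**
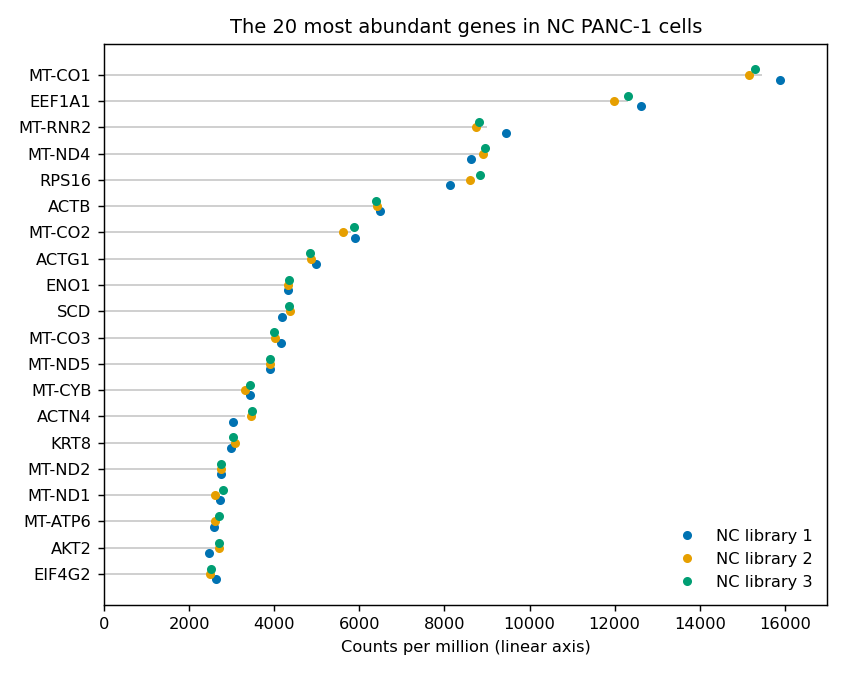
CPM (linear axis) of the 20 genes with the highest mean CPM, with 1 point per NC library and a grey line from 0 to the mean. MT-CO1 leads at 15164 to 15888 CPM and EIF4G2 closes the list at 2556 CPM on average, and for most genes the 3 points lie close together.

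Ranking by CPM per kilobase kept 14 of the 20 genes and moved short transcripts up. MT-CO1 had 10020 ± 249 and MT-CO2 8471 ± 238 CPM per kilobase (SD, n = 3). Genes that entered were the thymosin TMSB10 at 1950 ± 31.9, the calcium-binding protein S100A6 at 1195 ± 30.1 and FBL at 1110 ± 50.0 CPM per kilobase. FBL is fibrillarin, which methylates ribosomal RNA. MT-ND6, MT-ND3 and MT-RNR1 entered as well. RPS16, at 3272 ± 140 CPM per kilobase, was the highest nuclear gene on this scale, and the next ribosomal protein gene, RPS12, had 660 CPM per kilobase. Of 86 cytosolic ribosomal protein genes 82 were present, with a median of 132 CPM per kilobase over all of them. Outside the mitochondrial genome, the highest non-coding RNAs were the nuclear-retained MALAT1 (680 ± 72.4 CPM) and NEAT1 (553 ± 26.2 CPM), then FGD5-AS1 (201 ± 4.33 CPM), the signal recognition particle RNA copy RN7SL2 (193 ± 51.2 CPM) and TUG1 (191 ± 9.10 CPM). RN7SL2 had 145, 247 and 188 CPM in the 3 libraries, a wider spread than that of the other 4.

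The highest stretch of the genome lay on chromosome 19. In windows of 21 consecutive present protein-coding genes, the median level was highest from MRPS12 to PSMC4 (GRCh38 chr19:38930548-39981441), at 438 CPM. The median of all 11434 windows was 35.4 CPM and their 99th percentile 92.8 CPM. The highest window on any other chromosome had 145 CPM (chromosome X, around TMEM187). On the rest of chromosome 19, with wide flanks on both sides of the top window left out, the highest had 87.3 CPM. The 26 highest windows of the genome all lay on chromosome 19, at or near the top window. Neighbouring windows share genes, so these are not separate stretches. This window scan was made after the levels were seen and is a description without a test.

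Around this window, a segment from SPINT2 to AKT2 (chr19:38244035-40285536) was described. Its ends were set at high genes after the levels were seen. Its contrast with the flanks is therefore in part built in by that choice and was not tested. The segment holds 69 protein-coding genes, of which 50 were present, or 72.5% beside 59.7% of all protein-coding genes. Their median was 233, 234 and 232 CPM in the 3 libraries, and 33 of the 50 had at least 100 CPM, or 66.0%, against 18.3% of all present nuclear protein-coding genes. Stretches of equal length before and after it had medians of 12 and 26.9 CPM, with 85.3% and 55.9% of their protein-coding genes present. The stretch before holds zinc finger genes such as ZNF570 (13.1 CPM) and ZNF146 (165 CPM). Present C2H2 zinc finger genes of the whole genome had a median of 13.0 CPM. The part of this family in the median of that stretch was not tested. The segment gave 3.48%, 3.62% and 3.64% of all counts in the 3 libraries. Of the 65 nuclear genes with at least 1000 CPM, 11 lay in it. AKT2, a serine/threonine kinase of the PI3K pathway and the last gene of the segment (ENSG00000105221, chr19:40230317-40285536, minus strand), had 2465, 2698 and 2697 CPM, with library 1 the lowest. C19orf47, the next protein-coding gene, had 41.1 CPM on average, and this drop was seen in all 3 libraries. Such drops also occurred inside the segment, where CNTD2 and TTC9B beside AKT2 had 2.08 and 2.06 CPM on average. A drop between neighbours therefore does not by itself mark an edge.

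The genes of the segment have unlike roles. Translation and ribosome assembly were represented by RPS16, FBL and EIF3K (970, 877 and 883 CPM), a subunit of initiation factor eIF3. Transcription was represented by PAF1 (1288, 1311 and 1314 CPM), a subunit of the elongation complex that carries its name, by SUPT5H (1626, 1741 and 1683 CPM), the elongation factor SPT5, and by MED29 (969, 1026 and 1018 CPM) of the Mediator. PSMC4, an ATPase of the proteasome, had 2280, 2262 and 2274 CPM, and TIMM50, a receptor of the inner mitochondrial membrane translocase, had 1660, 1684 and 1702 CPM. Signalling genes were the kinases PAK4 (438 ± 13.6 CPM) and MAP3K10 (448 ± 14.2 CPM) and the exchange factor PLEKHG2 (1658 ± 79.4 CPM). Genes usually confined to few tissues were present too, such as the Notch ligand DLL3 at 170, 182 and 173 CPM and RYR1, the calcium channel of skeletal muscle, at 49.1 CPM on average. Present genes of low level lay between them, such as the mucin-like FCGBP at 3.97 CPM, and the galectin genes LGALS13 and LGALS16 and the acinar gene SYCN had 0 counts. Among 472 present genes of the C2H2 zinc finger family, ZNF780B (258, 251 and 232 CPM) and ZNF780A (206, 201 and 196 CPM) of the segment ranked 1 and 2 by CPM.

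**Figure D3:**
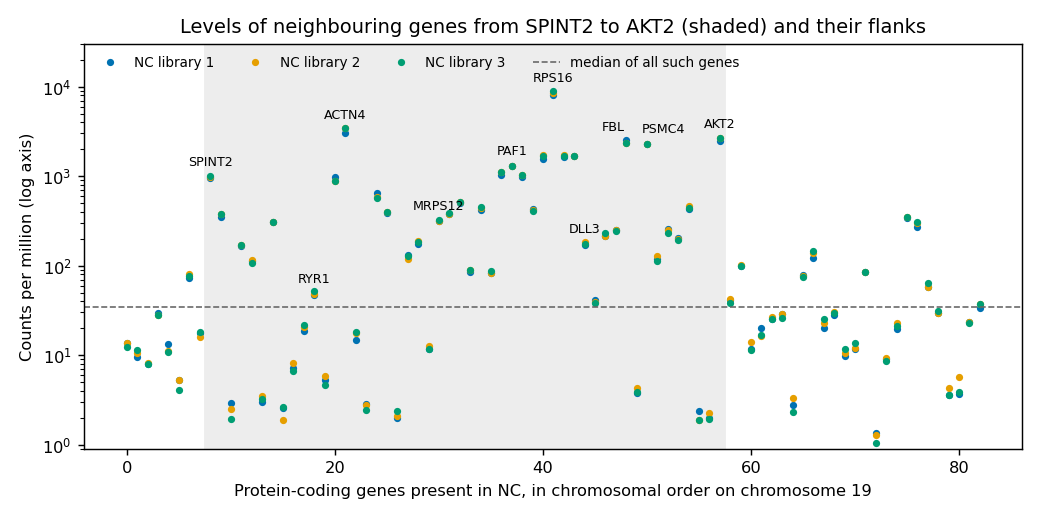
CPM (log axis) of present protein-coding genes in their order along chromosome 19, with 1 point per NC library, the segment from SPINT2 to AKT2 shaded and the median of all present nuclear protein-coding genes (34.7 CPM) dashed. Most shaded genes lie above the dashed line, with RPS16 the highest at 8517 CPM on average. Outside the segment, points lie above and below the line, the highest being AXL at 348 CPM and HNRNPUL1 at 291 CPM on average.

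The start regions of 4 high genes of the segment are shown to set their letters side by side. Each line below gives 110 bases before to 10 bases after the start, 5′ to 3′ on the gene's strand, from RefSeq (GRCh38.p14). Capitals mark the GC box GGGCGG or its reverse CCGCCC, the CCAAT box CCAAT or its reverse ATTGG, and the TATA box TATAAA or its reverse TTTATA, and no match shown overlaps another.
ACTN4, chr19:38647539-38647658, plus strand: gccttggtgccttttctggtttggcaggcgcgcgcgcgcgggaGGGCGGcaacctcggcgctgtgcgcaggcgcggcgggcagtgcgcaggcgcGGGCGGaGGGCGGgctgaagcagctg
PAF1, chr19:39391097-39391216, minus strand: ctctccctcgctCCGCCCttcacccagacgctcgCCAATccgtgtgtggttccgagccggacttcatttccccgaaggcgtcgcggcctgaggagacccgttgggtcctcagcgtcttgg
FBL, chr19:39846370-39846489, minus strand: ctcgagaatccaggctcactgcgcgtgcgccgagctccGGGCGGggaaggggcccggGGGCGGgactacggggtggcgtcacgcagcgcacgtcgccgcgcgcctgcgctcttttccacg
AKT2, chr19:40285336-40285455, minus strand: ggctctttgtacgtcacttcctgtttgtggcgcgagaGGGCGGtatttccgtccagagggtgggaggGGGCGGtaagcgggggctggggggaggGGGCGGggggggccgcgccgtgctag
All 4 stretches hold a GC box and none holds the TATA letters, while the CCAAT letters occur in PAF1. The same stretch of RPS16, the highest gene of the segment, also holds a GC box and no TATA letters. Over the same stretch of 35116 promoters in the RefSeq table, 33.4% hold a GC box, 20.2% a CCAAT box and 5.56% a TATA box on either strand. The AKT2 stretch lies wholly inside the deposited bounds of that gene (chr19:40230317-40285536), so it is not upstream of every annotated start. These matches describe letters and do not show binding.

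Markers of duct epithelium were the strongest of the pancreatic cell types. Of 20 listed genes 13 were present, or 65.0%, against 59.7% of all protein-coding genes, and the present members had a median of 17.5 CPM per kilobase against 6.53. The intermediate filament pair of simple epithelia led, with KRT8 at 2996, 3068 and 3042 CPM and KRT18 at 1266, 1218 and 1160 CPM, or 441 ± 5.30 and 377 ± 16.5 CPM per kilobase (SD, n = 3). The gene bodies of KRT8 and KRT18 overlap on opposite strands, with 7.63% and 16.3% of their exon bases shared. KRT19, a duct keratin, had 305, 301 and 311 CPM. KRT8, KRT18, KRT19, KRT80, the duct transcription factor SOX9 and the tight junction gene CLDN4 followed each other in CPM per kilobase without overlap between neighbours in any library. Other duct genes were low or missing. KRT7 had 7.28 ± 0.528 CPM, EPCAM, an epithelial adhesion molecule, 9.64 CPM on average, and CDH1, the E-cadherin gene, 5.88, 7.04 and 6.19 CPM. The chloride channel gene CFTR, SPP1 and PROM1 had 0 counts.

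Among 25 keratins, 9 were present. The stratified epithelium keratins KRT14, KRT1, KRT6A, KRT6C and also KRT23 had 0 counts, and KRT5 had 1 count in the 3 libraries together. Keratins therefore ranged from no detection to the level of KRT8, among the 20 highest genes.

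Acinar and endocrine markers were nearly absent. Of 25 acinar genes 2 were present, CUZD1 at 4.46, 3.22 and 4.29 CPM and the nuclear receptor NR5A2 at 4.39, 4.76 and 3.98 CPM, and the summed level of all 25 was 9.53 to 10.7 CPM. The lipase PNLIP, the trypsinogen PRSS2, the amylase AMY2A and the acinar transcription factor PTF1A had 0 counts, as did PNLIPRP1, REG1A, REG1B, GP2, SPINK1, RBPJL and SYCN. The trypsinogen PRSS1 and the carboxypeptidase CPA1 had 1 count each in all. Of 34 islet and neuroendocrine genes 7 were present. The hormones INS, GCG, SST, PPY and IAPP and the transcription factors NEUROD1, NEUROG3, NKX2-2, PAX4 and RFX6 had 0 counts, and so did ABCC8, SLC30A8, PCSK2, SCG3, INSM1 and UCHL1. The islet factor PDX1 had 12 counts in all. Present members were ENO2, the neuronal enolase, at 47.5, 41.3 and 43.2 CPM, the synaptic vesicle gene SYP at 11 ± 0.334 CPM, and the granule genes CHGB, SCG2 and SCG5, MAFA and NCAM1 at 1.18 to 3.78 CPM on average. ENO2 lay above SYP in every library, and no hormone gene of the list other than GHRL, with 27 counts in all, was detected.

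The start regions of silent endocrine genes (INS, GCG), nearly silent acinar genes (PRSS1, CPA1) and high genes (KRT8, VIM) are shown, with the same capitals and window as above (RefSeq, GRCh38.p14).
INS, chr11:2161200-2161319, minus strand: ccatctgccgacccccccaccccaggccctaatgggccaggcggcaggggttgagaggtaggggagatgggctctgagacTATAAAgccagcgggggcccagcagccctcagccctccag
GCG, chr2:162152238-162152357, minus strand: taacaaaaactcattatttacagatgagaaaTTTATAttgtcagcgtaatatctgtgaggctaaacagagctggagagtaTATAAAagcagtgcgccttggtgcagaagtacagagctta
PRSS1, chr7:142749362-142749481, plus strand: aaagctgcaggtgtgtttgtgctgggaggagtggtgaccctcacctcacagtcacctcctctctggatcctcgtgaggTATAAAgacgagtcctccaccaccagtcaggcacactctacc
CPA1, chr7:130380384-130380503, plus strand: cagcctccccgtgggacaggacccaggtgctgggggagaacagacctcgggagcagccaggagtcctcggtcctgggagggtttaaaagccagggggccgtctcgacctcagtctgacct
KRT8, chr12:52926460-52926579, minus strand: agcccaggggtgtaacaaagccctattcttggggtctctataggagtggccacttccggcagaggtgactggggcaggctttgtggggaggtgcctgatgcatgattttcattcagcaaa
VIM, chr10:17228131-17228250, plus strand: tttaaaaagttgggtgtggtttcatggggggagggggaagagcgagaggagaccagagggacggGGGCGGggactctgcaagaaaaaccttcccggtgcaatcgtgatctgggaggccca
TATAAA begins 30 bases before the start in INS and GCG and 32 bases before it in PRSS1. VIM holds a GC box that begins 46 bases before the start and no TATA letters. CPA1 and KRT8 hold none of the letters searched, and neither do the same stretches of the high glycolytic genes GAPDH and LDHA. The KRT8 and GAPDH stretches lie inside the deposited bounds of these genes (chr12:52897187-52949954 and chr12:6533927-6538374). Each gene is described at a single annotated start, which need not be the main start in these cells. The genes were picked for their roles and levels, and nothing about the use of these letters in PANC-1 cells was measured.

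Transcription factors of the foregut were present in part. Of 22 listed genes 9 were present, or 40.9%. This is below the 59.7% of all protein-coding genes and the 66.1% of genes with a deposited transcription factor family. FOXA2, at 53.6, 56.0 and 58.2 CPM, led per kilobase with 21.5 ± 0.875 CPM per kilobase. ONECUT3, at 147, 157 and 147 CPM, followed with 18.1 ± 0.656 CPM per kilobase. GATA4 had 24.5 ± 0.719 CPM, HHEX 14.4 ± 0.122 CPM and KLF4 17.4 ± 0.753 CPM, whereas GATA6, linked to the classical tumour subtype, had 4.56 ± 0.364 CPM. HHEX and GATA4 overlapped in CPM per kilobase. HNF4A, HNF4G and SOX17 had 0 counts, GRHL2 had 1 count in all, and FOXA1 had 6.64 ± 0.777 CPM.

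Mesenchymal genes were widely present. Of 29 measured members 24 were present, or 82.8% beside 59.7% of all protein-coding genes, with a median of 14.2 CPM per kilobase. VIM, the mesenchymal intermediate filament, had 1976, 1741 and 1698 CPM, with library 1 the highest. The matricellular gene CYR61 had 957, 945 and 934 CPM, the hyaluronan receptor CD44 1036, 994 and 1013 CPM, and the receptor kinase AXL 338, 353 and 354 CPM. CYR61 and VIM overlapped at 385 ± 4.64 and 350 ± 29 CPM per kilobase, and both lay below KRT8 on that scale in every library. The cadherins held both kinds. CDH2, the N-cadherin gene, had 69.7, 68.3 and 72 CPM, and its level of 14.1 ± 0.381 CPM per kilobase lay above that of CDH1, at 1.03 ± 0.0976, in every library. Not all members were high, since fibronectin, FN1, had 1.54 CPM and the transcription factor ZEB2 2.22 CPM on average, SNAI2 had 19 counts in all, and TWIST1 and CDH11 had 0 counts. ZEB1 had 34.4 CPM and SNAI1 12.1 CPM on average.

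**Figure D4:**
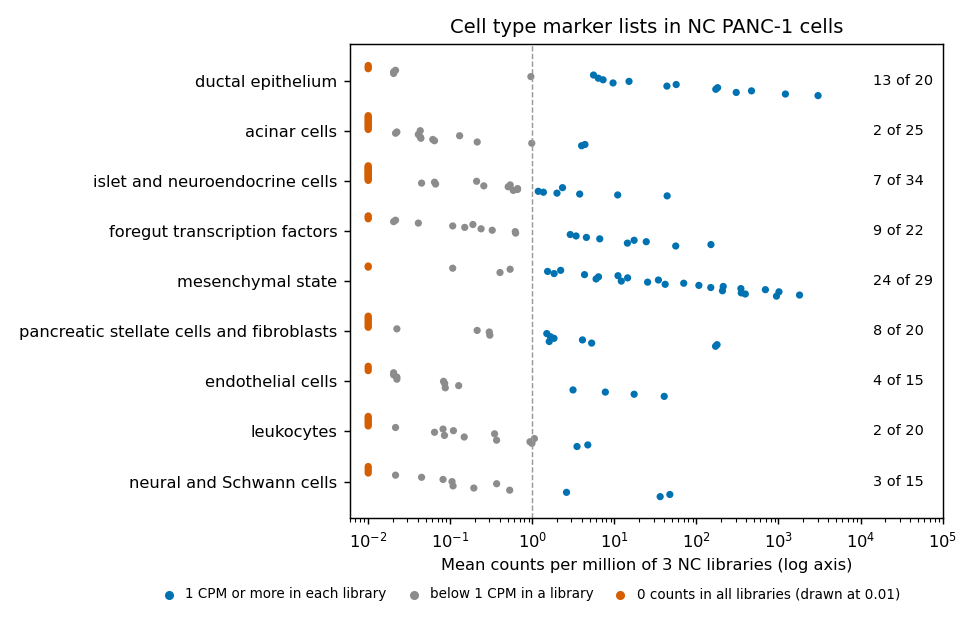
Mean CPM of 3 NC libraries (log axis) for each member of 9 cell type lists, coloured by detection, with genes at 0 counts drawn at 0.01, the dashed line at 1 CPM and the number present at the right. Duct and mesenchymal lists reach beyond 1000 CPM and have 13 of 20 and 24 of 29 members present, whereas acinar and leukocyte lists each have 2 members present.

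Markers of cells that accompany tumours in tissue were mostly at or near 0. Of 20 stellate cell and fibroblast genes 8 were present, with COL1A1 at 169, 180 and 187 CPM and the matrix gene FBLN1 at 166, 172 and 175 CPM, but COL1A2, which encodes the partner chain of COL1A1 in type I collagen, had 0 counts, as did DCN, LUM, FAP, POSTN, DES, PDPN and CXCL12. The list summed to 350 to 381 CPM, most of it from COL1A1 and FBLN1. Of 20 leukocyte genes 2 were present, the monocyte receptor CD14 at 4.52, 3.42 and 2.57 CPM and CORO1A at 4.74 ± 0.418 CPM, and the list summed to 11.9 to 13.4 CPM, while the defining gene PTPRC had 0 counts with CD3D, CD3E, MS4A1, LYZ, FCGR3A and CD163. Of 15 endothelial genes 4 were present, EGFL7 at 40.5 ± 0.579, SOX18 at 17.4 ± 2.06, ESAM at 7.76 ± 0.340 and KDR at 3.13 ± 0.628 CPM, and PECAM1 and VWF had 1 count each while TEK, ERG and EMCN had 0. Of 15 neural and Schwann cell genes 3 were present, NES, MAP2 and TUBB3, and S100B, GAP43, NEFL and STMN2 had 0 counts.

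The lists that divide pancreatic carcinoma into subtypes were both detected in small part. Of 24 basal-like genes 7 were present, led by the glucose transporter SLC2A1 at 60.8, 62.5 and 72.6 CPM, and the keratin KRT17 had 3 counts in all. Of 24 classical genes 4 were present, led by the disulfide isomerase AGR2 at 144, 126 and 134 CPM, followed by TFF3, LGALS4 and TSPAN8 at 1.49 to 2.68 CPM on average. REG4, CTSE, CLRN3, CYP3A7, SPINK4 and LYZ of the classical list and SPRR3, SPRR1B, VGLL1, LY6D, KRT6A, KRT6C, SERPINB3 and SERPINB4 of the basal-like list had 0 counts. Both shares, 29.2% and 16.7%, lie below the 59.7% of all protein-coding genes.

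Integrins, which attach cells to matrix, were led by ITGB1 at 1184, 1139 and 1199 CPM, the beta chain common to most matrix receptors. ITGB5, ITGA3, ITGAV, ITGA6 and ITGA5 followed in CPM per kilobase, each above the next in every library, from 95.7 ± 3.00 for ITGB5 to 28.0 ± 0.972 for ITGA5. Of 26 chains 15 were present, or 57.7%, beside 59.7% of all protein-coding genes, and ITGA8 had 0 counts.

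Genes of glycolysis were high, and at several steps 1 isoenzyme stood far above the others. Of 28 glycolysis genes 19 were present, or 67.9% beside 59.7% of all protein-coding genes, with a median of 22.2 CPM per kilobase. ENO1 had 821 ± 3.45, GAPDH 558 ± 11.8, the pyruvate kinase PKM 237 ± 5.07, PGAM1 231 ± 6.75 and LDHA 225 ± 6.65 CPM per kilobase, and the last 3 overlapped from one to the next. LDHA, the lactate dehydrogenase chain favoured in glycolytic cells, had 1443, 1363 and 1385 CPM, whereas LDHB had 34.1 CPM on average and LDHC 1 count in all. The muscle mutase PGAM2, HK3 and the testis form PGK2 had 0 counts, and the liver kinase PKLR had 2 counts in all. Lactate export was represented by SLC16A3, at 495, 510 and 557 CPM, and by its chaperone BSG, at 604, 613 and 616 CPM. Both were above the uptake transporter SLC2A1 in every library, at 57.9 ± 3.62, 161 ± 1.65 and 13.8 ± 1.35 CPM per kilobase in the order SLC16A3, BSG, SLC2A1. The genes FBP1, PCK1 and G6PC of glucose release by the liver and G6PC2 and GYS2 had 0 counts, while PCK2 and G6PC3 had 45.5 ± 0.579 and 44.5 ± 2.2 CPM. The brain form of glycogen phosphorylase, PYGB, led its list of 16 genes, of which 9 were present, with 786, 836 and 839 CPM.

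The tricarboxylic acid cycle was present almost whole. Of 25 genes 24 were present, or 96.0%, and the exception OGDHL had 33 counts in all. FH, fumarase, led per kilobase and had 165, 153 and 153 CPM, and MDH2 and SDHB followed at 66.4 ± 1.2 and 55 ± 2.52 CPM per kilobase. Of 23 glutamine, serine and one-carbon genes 19 were present, led per kilobase by PSAT1 at 200, 191 and 184 CPM and the mitochondrial folate enzyme MTHFD2 at 442, 415 and 410 CPM, which overlapped on that scale. GLS2, GPT, GLUD2 and glutamine synthetase GLUL, with 52 counts in all, stayed below 1 CPM in at least 1 library. ACSS2 itself had 34.5, 31.7 and 29 CPM. The branched-chain aminotransferases BCAT1, cytosolic, and BCAT2, mitochondrial, had 21.2, 20.8 and 17.9 CPM and 47.6, 44.2 and 43.5 CPM, or 1.70 ± 0.150 and 9.91 ± 0.481 CPM per kilobase, with BCAT2 above BCAT1 in every library. Of 20 genes of liver-type metabolism 5 were present, led by the cytochrome CYP1B1 at 174 ± 1.35 CPM, and ALB, APOB, TTR, OTC, CYP3A4 and UGT1A6 had 0 counts.

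Of 58 receptor tyrosine kinases 31 were present, or 53.4%, below the 59.7% of all protein-coding genes. EPHA2, an ephrin receptor, led per kilobase and had 366, 390 and 400 CPM, followed on that scale by AXL and the ephrin receptor EPHB4. EGFR, at 240, 270 and 271 CPM, DDR1, a collagen receptor, PTK7 and the hepatocyte growth factor receptor MET came next at 20.8 to 17.8 CPM per kilobase and each of them overlapped the next. MUSK, NTRK3, EPHA6 and TEK had 0 counts, and ERBB4 and KIT had 5 and 12 counts in all. Of 33 growth factor genes 18 were present. PDGFB, a ligand of platelet-derived growth factor receptors, led with 253, 275 and 281 CPM, while its receptor genes PDGFRB and PDGFRA had 14 counts and 1 count in all. VEGFB, CSF1, EREG, VEGFA and GAS6, the AXL ligand, followed per kilobase. EGF, NRG3, FGF10, IGF1 and GDNF had 0 counts.

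The RAS and MAPK route was present in 28 of 29 genes, or 96.6%, and DUSP4, a phosphatase of the pathway, had 8 counts in all. Its AP-1 member FOSL1 had 159, 166 and 165 CPM and the highest CPM per kilobase of the list, at 86.5 ± 2.01. Of 33 genes of the TGF-beta and BMP pathway 26 were present, led per kilobase by the BMP target ID1 at 189, 175 and 176 CPM and the signal transducer SMAD3 at 612, 626 and 626 CPM, with SMAD4 at 41.2 CPM on average and ACVR1C at 0 counts. Of 36 WNT ligand and receptor genes 23 were present. The co-receptor LRP5 had 351, 392 and 390 CPM, WNT7B 209, 231 and 233 CPM and the R-spondin receptor LGR4 176, 171 and 169 CPM, each above the next per kilobase in every library, and WNT1, WNT2, WNT9B and FZD10 had 0 counts. In Notch and Hedgehog signalling, 13 of 23 genes were present. DLL3 led them, and SHH, the Hedgehog ligand, had 33.0, 32.5 and 36.2 CPM while SMO, the transducer that Hedgehog releases from inhibition, had 14 counts in all. GLI1 and GLI2, the transcription factors of that pathway, had 15.0 and 30.7 CPM on average.

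Of 32 cytokine, chemokine and receptor genes 17 were present. TNFRSF1A led per kilobase and had 160, 161 and 163 CPM, then came LIF, an interleukin-6 family cytokine, with 91.0, 98.2 and 100.1 CPM, and its receptor chains IL6ST and LIFR were present at 176 ± 4.41 and 115 ± 1.75 CPM. IL6 itself had 2 counts in all, and IL33 and ACKR3 had 0. Of 48 nuclear hormone receptors 25 were present, or 52.1%, beside 59.7% of all protein-coding genes. The orphan receptor NR2F6 led with 273, 288 and 287 CPM, or 106 ± 3.18 CPM per kilobase, and ESRRA, NR1H2, NR2F2, NR2F1 and PPARG followed on that scale. The progesterone receptor gene PGR had 0 counts and the estrogen receptor gene ESR1 had 4 counts in all, and NR2E1, NR1I2, NR1H4, ESRRG, ESRRB, NR0B1 and RXRG had 0 counts as well.

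Of 27 genes of antigen presentation and checkpoint ligands 16 were present, or 59.3%, beside 59.7% of all protein-coding genes. The class I light chain B2M had 614, 562 and 554 CPM, with library 1 the highest. Among the class I heavy chains HLA-C had 56.5 ± 6.12 CPM and HLA-B had 10.4 CPM on average. Reads of these similar and polymorphic genes can be split, so their order is uncertain. The class II genes HLA-DRB1, HLA-DPB1 and HLA-DQA1 had 0 counts, as did PDCD1LG2 and VTCN1, and CD274, which encodes PD-L1, had 11 counts in all.

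Of 21 genes that drive pancreatic carcinoma 19 were present, or 90.5%, beside 59.7% of all protein-coding genes. AKT2 led at 174 ± 8.93 CPM per kilobase, and the cyclin CCND1 followed on that scale and had 337, 351 and 352 CPM. MYC had 72.7, 84.8 and 85.6 CPM and ARID1A 219 CPM on average. CDKN2A, which encodes p16 and p14ARF, had 0 counts. On chromosome 9 its neighbour CDKN2B also had 0 counts and MTAP, the methylthioadenosine phosphorylase gene, 0.258, 0.470 and 0.245 CPM, whereas KLHL9 and FOCAD, nearer the end of the short arm, had 40.0 ± 1.73 and 47.5 ± 1.14 CPM.

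**Figure D5:**
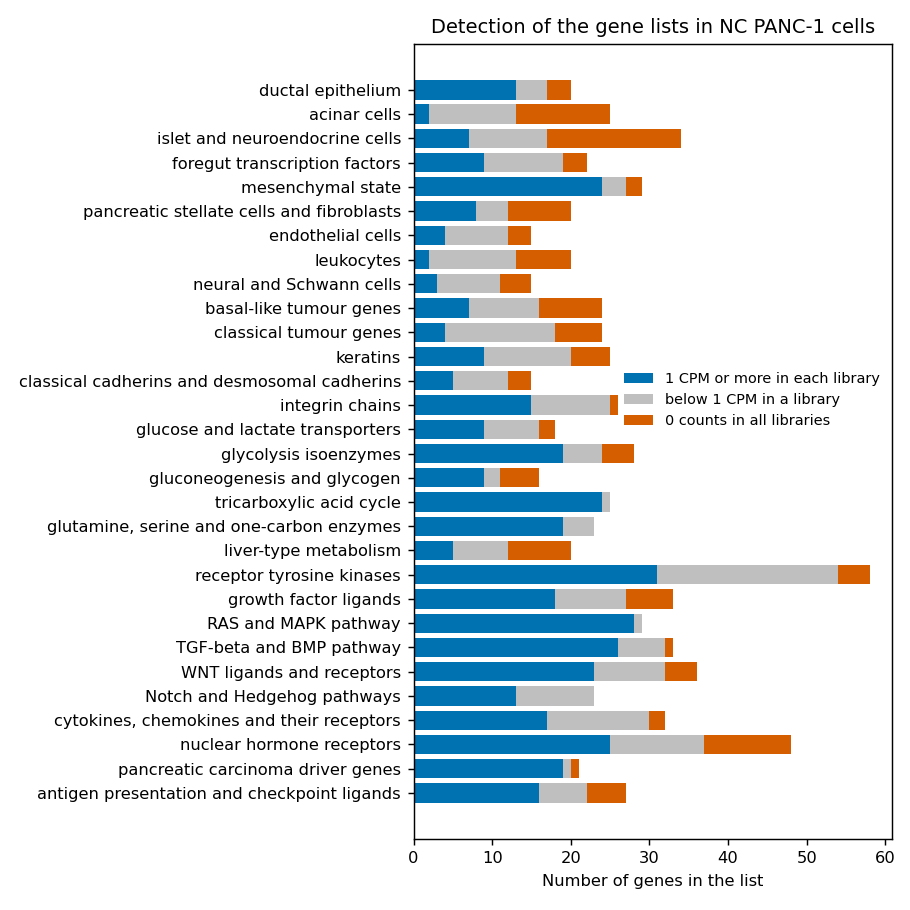
Number of genes in each of the 30 lists (linear axis) that were present at 1 CPM or more in each NC library, detected below that in at least 1 library, or at 0 counts in all 3. The tricarboxylic acid cycle (24 of 25) and the RAS and MAPK list (28 of 29) are almost fully present, whereas acinar genes (2 of 25) and leukocyte genes (2 of 20) are mostly low or at 0.

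Transcription factors and other genes with a deposited factor family were present in 1026 of 1553 cases, or 66.1%. Shares differed by family, from 74.9% of 630 C2H2 zinc finger genes and 83.3% of 48 bZIP genes to 35.2% of 193 homeobox genes and 12.5% of 16 POU genes. The highest per kilobase were the cold shock protein YBX1 at 610 ± 3.00, the chromatin protein HMGA1 at 337 ± 10.5, CNBP at 154 ± 1.13, ID1 at 146 ± 6.24 and the stress factor ATF4 at 118 ± 2.83 CPM per kilobase. HMGA1 had 758, 792 and 805 CPM. Among homeobox genes HOXC10, BARX1 and HOXB6 were the highest per kilobase, at 51.8 ± 0.963, 49.5 ± 2.02 and 46.0 ± 3.44 CPM per kilobase, and neighbours in that order overlapped. Not divided by length, HOXB3 with 207, 217 and 214 CPM lay above HOXC10 with 123, 121 and 118 CPM in every library. The genes of HOXB3 and HOXB6 overlap on the same strand, so reads may be split between them.

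The genes that varied most between the libraries were mostly genes with near copies or pseudogenes. Reads can be split between copies, so these counts are uncertain, and the part of such splitting in the spread was not tested. H19, an imprinted non-coding RNA, had 31.5, 7.65 and 4.78 CPM (edgeR goodness of fit, adjusted p 7.91e-91). SMN1 had 40.5, 12.8 and 11 CPM, and the sum with its near-identical copy SMN2 still varied with a coefficient of variation of 57.8%. EIF3C had 77.2, 26.4 and 37.1 CPM and varied by 51.5% when summed with EIF3CL. Library 1 was the highest in all 3 of these genes. For the pseudogenes SPCS2P4 and TCEA1P2 the coefficient of variation was 86.9% and 62.6% alone. Their parent genes SPCS2 and TCEA1 had far higher CPM and varied by 10.998% and 7.1828% alone. The sums of pseudogene and parent varied by 6.5% and 4.7%. The parents make up most of these sums, so the low values do not show whether reads were split. GPR89B, U2AF1L5, FAM45BP, EIF4BP3 and AP001000.1 completed the 10 most variable genes with a mean of at least 100 counts. The sum of GPR89B with GPR89A still varied by 32.16%, and that of U2AF1L5 with U2AF1 by 35.15%.

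Genes whose exons lie inside other genes were rarely counted, which bears on the calls of absence above. Of 475 nuclear protein-coding genes that share over 90% of their exon bases with other genes of the same strand 1 was present, or 0.211%, against 60.6% of 16518 genes that share none. Of 433 genes sharing 50% to 90%, 22.9% were present. Of 2512 genes sharing up to 50%, 71.2% were present. Their median, absent genes included, was 12.8 CPM, against 9.33 CPM for genes that share none. Among the 745 listed genes found in the table, 5 share over 50% on the same strand, namely GYS2, CD68, IGF2, RNF43 and ITGB3. With genes of either strand counted, 11 do so. The levels of these genes are uncertain. ALDOA, the main aldolase of most cells, had 6.80 CPM on average and shares 42.3% of its exon bases, and ASNS, asparagine synthetase, had 5.68 CPM and shares 44.6%. The ribosomal protein genes RPS10 and RPL17, at 1.96 and 9.14 CPM, share 39.4% and 32.7%. All of these genes, ALDOA and ASNS included, fall in the class sharing up to 50%, which as a whole was not low. How the authors assigned reads in shared exons is not stated in the labels, and its part in these levels was not tested.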

How the data were processed

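RNA was sequenced from both fragment ends after oligo(dT) selection and dUTP marking of the second strand, per the labels' protocols. The authors deposited whole-number counts per gene, unscaled, for 9 libraries, of which the 3 titled nc were used and 6 columns were left out. The submitters' processing notes name GRCh38, cutadapt 1.9, HISAT2 2.2.1, StringTie 2.1.6, DESeq2 and edgeR, without roles. The counter and its strand setting are not given in the labels, so overlapping and antisense genes are uncertain. The deposited gene length equals the summed exons of GENCODE 29 for 58735 of 58735 genes, a median of 1.31 times the longest transcript for present protein-coding genes, so long-exon genes appear lower per kilobase.

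CPM used plain library totals, and no row lacked a gene. Variation was tested with edgeR 4.0.16 (R 4.3.3) by goodness of fit of a Poisson model with TMM offsets, after filterByExpr (minimum count 10, minimum total 15), with Benjamini-Hochberg adjustment over 14468 genes. On simulated counts of these libraries with 14468 genes, 64.0% of 50 genes with at least 100 counts changed 1.25-fold in 1 library and 100% of those changed 2-fold were called, with 0.210% of unchanged genes. Of 19951 protein-coding genes 14892 (74.6%) had a promoter in the RefSeq table, below 80%, so a check of promoter composition over gene classes would be void and none is given.

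The 3 libraries, the 30 gene lists (747 genes, 745 found, CYR61 and CTGF under their older symbols) and the rule for named genes were chosen with earlier results of these data known. The rule names the 20 highest genes by CPM and by CPM per kilobase (length of at least 300 bases for the latter), the 5 highest non-coding genes, the 10 most variable genes, ACSS2, BCAT1, BCAT2, CDKN2A and MTAP, and in each list up to 6 leading members, those at 0 counts and defining markers. Other genes were named after their values were seen. Python 3.11.15 with pandas 2.3.3 and matplotlib 3.10.9 made the summaries. Alternatives covered scaling (TMM, DESeq2 1.42.0 size factors), thresholds, length, filters, window size and leaving out each library. Some members that entered the counts of the lists are not reported here by name.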

Additional observations from a re-analysis of the deposited data

How the results depend on the processing

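Scaling with TMM or DESeq2 size factors left the count of present genes at 13607, and thresholds of 0.5 and 2 CPM and 1 CPM per kilobase gave 15014, 12415 and 12085. Members of the lists counted as present numbered 326 to 424 over all settings, with 393 in the report. The share of counts in the 20 leading genes was 11.1%, 9.88% for the 20 genes leading by CPM per kilobase, and 7.84% of nuclear counts without the mitochondrial genome. Leaving out 1 library at a time gave a common dispersion of 0.000809 to 0.00339 and 226 to 1837 variable genes, lowest in both without library 1. Without a filter on low counts 1907 genes varied, with DESeq2 size factors 2163 and with plain totals 2111. The highest window on chromosome 19 had a median of 1658 CPM with 11 genes, 250.2 CPM with 41 genes and 149.8 CPM per kilobase, against 219.5, 101.9 and 45.75 for the next chromosome, and 431.8 to 445.1 CPM when 1 library was left out. Window settings were chosen after seeing the data. Since 1 CPM is 14.9 to 16.3 counts, genes near 1 CPM can change class by counting error. No paired analysis was possible because the libraries of 1 group enter.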

Other observations

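Among transcription factors outside the lists, SREBF1, which drives genes of lipid synthesis, had 492, 521 and 525 CPM, and the ETS family member ETS2 had 267, 267 and 268 CPM. Of the T-box family, 8 of 17 genes were present, and TBX1, a factor of pharyngeal development, had 98.4, 100.8 and 102.2 CPM. PITX1, a homeobox gene of hindlimb and pituitary development, had 65.4, 64.7 and 66.0 CPM.

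Non-coding RNAs below the 5 highest were NORAD at 179 ± 7.14 CPM, the snoRNA host gene SNHG5 at 158 ± 4.63 CPM and the imprinted RNA MEG3 at 114, 120 and 117 CPM (SD, n = 3). MEG3 lay within a narrow range in the 3 libraries, while H19, also imprinted, had 31.5, 7.65 and 4.78 CPM. The highest pseudogenes were RPS2P5 at 249, 304 and 312 CPM and EEF1A1P5 at 223, 227 and 216 CPM, and reads of their parent genes RPS2 and EEF1A1 cannot be told apart from theirs here.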
